A study of Mus musculus with 4 samples.

Results

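The circadian clock genes of the liver were examined in regenerating and in resting liver for acetylation of histone H3 at lysine 27 (H3K27ac), which marks promoters and enhancers in use. The members were chosen by name. Per1, Per2, Per3, Cry1, Cry2, Nr1d1, Nr1d2, Dbp, Rora and Bhlhe40 were looked up as the gene a region is assigned to. Of these 10 names, 6 were assigned a region in at least 1 list, among 10925 gene names with a listed transcription start site (TSS): Per1, Per3, Cry1, Cry2, Nr1d2 and Rora. Per2, Nr1d1, Dbp and Bhlhe40 were assigned no region in either list and are described only through their neighbours.

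The study used wild-type C57/BL6J mice and CUT&Tag, in which a transposase is held at the histone mark by an antibody and cuts and tags the DNA nearby. The PHx 12 h group was liver taken 12 h after removal of 70% of the organ (partial hepatectomy, PHx). The sham group was liver after a sham operation, and each group had 2 libraries. Age, sex and the animals behind each library are not given in the labels, so the spread between libraries could be technical. No hour is labelled for the sham libraries, and the series text speaks of 0 h. Clock genes cycle over the day, so hepatectomy, time after surgery and time of day cannot be told apart in any difference given here.

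The mammalian clock is a feedback loop. BMAL1 (gene Arntl) and CLOCK bind E-boxes and activate the Per and Cry genes, whose proteins return to the nucleus and repress that activation. In a second loop the REV-ERB receptors (Nr1d1 and Nr1d2) repress the transcription of Arntl and the ROR receptors (Rora among them) activate it. DBP and related bZIP factors act on D-boxes and carry the rhythm to output genes, and BHLHE40 (DEC1) represses transcription from E-boxes. In liver the clock times many metabolic enzymes.

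The promoters below were picked because they hold the letters of clock elements, and these letters differ between members. They are RefSeq windows on GRCm38.p6, from 250 bases before to 50 after a gene start. The regions lie on GRCm39, so how a window lies to the listed TSS was not determined. A set of 5 motifs was searched on both strands, and matches stand in capitals. They were the E-box CACGTG, the E'-box CACGTT, the D-box TTATGTAA or TTACGTAA, the ROR and REV-ERB element TAGGTCA, and the cAMP response element TGACGTCA, none of which overlapped another in these windows. The windows are those of Per3 (chr4:151044616-151044915, minus strand), Cry1 (chr10:85185005-85185304, minus strand), Cry2 (chr2:92434020-92434319, minus strand) and Per1 (chr11:69098699-69098998, plus strand).
Per3: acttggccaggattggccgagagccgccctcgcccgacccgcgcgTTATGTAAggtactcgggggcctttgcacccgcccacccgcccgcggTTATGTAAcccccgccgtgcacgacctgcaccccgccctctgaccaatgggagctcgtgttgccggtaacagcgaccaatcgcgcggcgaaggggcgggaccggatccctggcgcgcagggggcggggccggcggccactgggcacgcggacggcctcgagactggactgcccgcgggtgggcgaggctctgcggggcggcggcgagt
Cry1: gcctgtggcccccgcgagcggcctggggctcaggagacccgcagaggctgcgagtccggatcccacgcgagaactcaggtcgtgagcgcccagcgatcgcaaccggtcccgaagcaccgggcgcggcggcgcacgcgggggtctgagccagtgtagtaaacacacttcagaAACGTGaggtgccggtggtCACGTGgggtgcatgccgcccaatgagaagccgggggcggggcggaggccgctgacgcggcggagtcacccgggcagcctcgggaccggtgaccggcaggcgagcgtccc
Cry2: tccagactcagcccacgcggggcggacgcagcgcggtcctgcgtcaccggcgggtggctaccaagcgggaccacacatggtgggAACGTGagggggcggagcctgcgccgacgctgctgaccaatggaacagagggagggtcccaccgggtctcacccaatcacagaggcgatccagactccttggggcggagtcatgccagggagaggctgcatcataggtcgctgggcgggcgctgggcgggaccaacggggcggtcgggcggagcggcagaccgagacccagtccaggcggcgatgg
Per1: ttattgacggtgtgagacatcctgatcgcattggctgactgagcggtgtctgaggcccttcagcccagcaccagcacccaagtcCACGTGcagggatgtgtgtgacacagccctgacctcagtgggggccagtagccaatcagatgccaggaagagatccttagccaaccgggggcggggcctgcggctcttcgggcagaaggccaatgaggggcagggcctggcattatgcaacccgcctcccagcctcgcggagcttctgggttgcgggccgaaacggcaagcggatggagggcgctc

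The Per3 window held the D-box letters at 205 and at 158 bases before the start, 47 bases apart. The Cry1 window held an E'-box 79 bases and an E-box 60 bases before the start, 19 bases apart. Cry2 had a single E'-box, and the Per1 window shown had a single E-box, each 166 bases before the start. Cry1, Cry2 and Per1 thus carried E-box or E'-box letters in these windows, and Per3 carried D-box letters only. Of 32851 RefSeq windows of the same length, 7.15% held the E-box, 4.68% the E'-box and 1.06% the D-box. The ROR and REV-ERB element (2.61% of all windows) and the cAMP response element (1.79%) matched none of the 9 windows found, which belonged to 8 of the 10 names. Nr1d1 had an E'-box 28 bases before its start. The second Per1 window and those of Nr1d2, Dbp and Rora held none of the 5 motifs. Per2 and Bhlhe40 had no window. Whether any of these matches is bound by a factor was not tested.

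Each group is 1 merged list of regions without signal values. Only presence, position and width could be compared, the depth is unknown, no value has an error, and no test between the groups was possible. The PHx list held 10170 regions with a median width of 14550.5 bp, and the sham list held 11602 regions with a median width of 8152.5 bp, so a wider region after PHx is the general case. How peaks were split also differed. Of PHx regions 405 joined several peaks of library 1 and 1332 several of library 2, and of sham regions 1018 did for library 1 and 793 for library 2. The liver label was checked against marker genes. Of 5 hepatocyte markers, 4 had a promoter region in both lists, with 18025 bp after PHx and 10096 bp in sham at Alb, and Cps1 had one in PHx only. Of 5 endothelial markers, 4 had one in PHx only and Stab2 in neither. Csf1r of macrophages and Colec11 of stellate cells had one in PHx only, while C1qa, Cd68 and Ecm1 had one in both. Clec4f and Marco of macrophages and Lrat, Reln and Des of stellate cells were assigned no region, and no marker of lymphocytes, or of neutrophils and monocytes, was assigned one. Fewer cells of a type and less acetylation per cell cannot be told apart in whole liver, and the part of these markers in the clock gene results was not tested.

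Most clock promoters carried the mark in both conditions. A gene was called marked where a region overlapped its TSS ± 1 kb, with the TSS at the gene's furthest upstream listed start. Of the 6 clock genes, 5 were marked in both lists, 0 in PHx only, and 1, Per3, in sham only. Of all 10925 genes, 59.1% were marked in both lists and 14.9% in none, while 17.8% were marked after PHx alone and 8.19% in sham alone. Of the 7090 protein-coding names among them, 4682 were marked in both lists. A gene has a listed TSS only where a region names it, so these shares do not describe genes at large. The 5 shared clock genes were Per1, Cry1, Cry2, Nr1d2 and Rora, and each had its TSS inside a region of both lists. For Rora this is the start of a short transcript inside the gene. The promoter of the longer Rora transcript was not assessed.

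**Figure D1:**
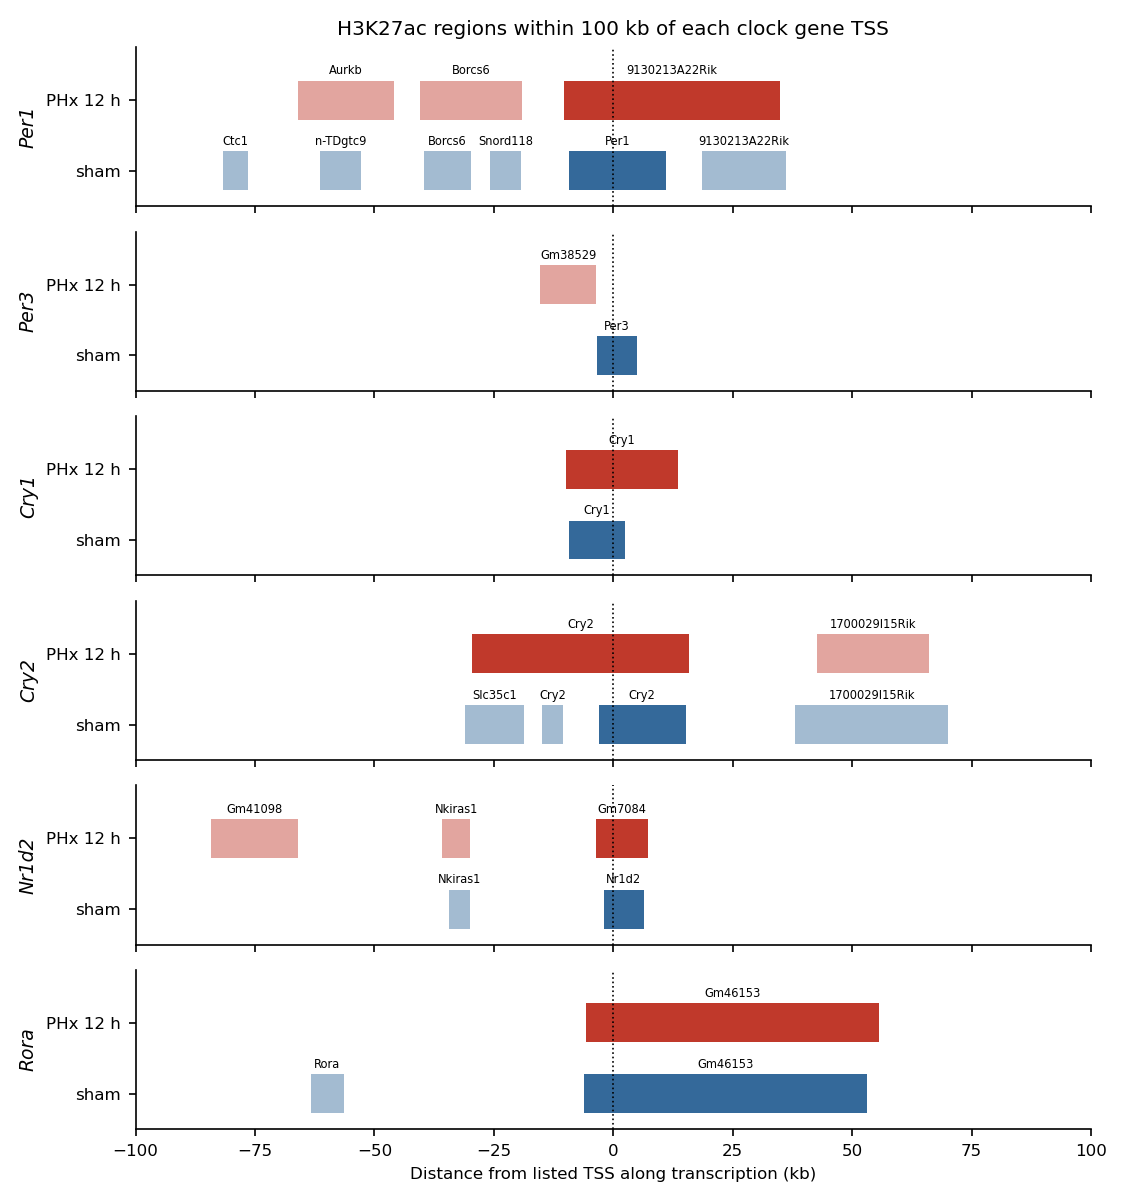
Regions within 100 kb of the listed TSS of each clock gene, with the PHx 12 h list above the sham list. The horizontal axis is the distance from the TSS along transcription in kb, dark bars are regions within 1 kb of the TSS, pale bars are other regions, and each bar carries the name of the gene the authors assigned it to. Per3 is the gene without a dark PHx bar, and the Per1 and Cry2 bars of PHx reach over sham bars of neighbouring genes.

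Per1 encodes a PERIOD repressor and is also induced acutely by glucocorticoid and cAMP signals. Its listed TSS is at chromosome 11, position 68985934, plus strand. The promoter region spanned 45135 bp after PHx (68975675 to 69020809) and 20303 bp in sham (68976646 to 68996948), a ratio of 2.22. Upstream of the TSS it reached 10259 bp after PHx and 9288 bp in sham, and downstream it reached 34875 bp after PHx and 11014 bp in sham. The extra width was therefore on the downstream side, through the end of the gene. The PHx region covered the whole listed Per1 transcript and the sham region covered 74.1% of it. The PHx region overlapped both the sham region of Per1 and a separate sham region of 17697 bp, which began 18562 bp downstream and was assigned to 9130213A22Rik, an RNA gene in RefSeq. After PHx the joined region was assigned to 9130213A22Rik and no region named Per1. The PHx region joined 1 peak of library 1 and 2 peaks of library 2, so the libraries did not divide the stretch alike.

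Cry1 and Cry2 encode the CRYPTOCHROME repressors that act with PERIOD proteins. At Cry1 (TSS at chromosome 10, position 85020123, minus strand) the region spanned 23551 bp after PHx and 11663 bp in sham, a ratio of 2.02. Upstream reach was 9975 bp after PHx and 9217 bp in sham. Downstream, into the gene, it was 13575 bp after PHx and 2445 bp in sham. As at Per1, the region was wider on the gene body side, and the covered share of the listed transcript was 25.8% after PHx and 4.65% in sham. No other region of either list lay within 100 kb of the Cry1 TSS.

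Cry2 has 2 listed starts, and the upstream one is at chromosome 2, position 92264426, minus strand. Its region spanned 45406 bp after PHx and 18171 bp in sham, a ratio of 2.50 and the largest of the clock genes. Here the difference was upstream of the gene, with a reach of 29499 bp after PHx and 3043 bp in sham. Downstream the reach was similar, 15906 bp after PHx and 15127 bp in sham. The PHx region overlapped 3 sham regions. They were the Cry2 promoter region, a distal intergenic region of 4485 bp that began 10483 bp upstream, and a region of 12318 bp assigned to Slc35c1, a GDP-fucose transporter gene. The PHx region joined 1 peak of library 1 and 3 peaks of library 2. Within 100 kb the acetylated length at Cry2 was almost equal, 68833 bp after PHx and 67079 bp in sham. The ratio of promoter width was thus 2.50 where the ratio of acetylated length in the wider window was 1.03.

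Per3, the third PERIOD gene, is dispensable for the core rhythm in mice. In sham a region of 8403 bp lay at chromosome 4, 151124151 to 151132553, over its TSS at position 151129160 on the minus strand. It reached 3393 bp upstream and 5009 bp into the gene, and joined 1 peak of each library. After PHx no region covered the TSS, and none of the listed transcript was covered, against 10.5% in sham. The nearest PHx region spanned 11764 bp (151132683 to 151144446) and was assigned to the predicted gene Gm38529. It began 3523 bp upstream of the Per3 TSS, and its end and that of the sham region were 129 bp apart. The groups thus had adjacent regions that shared no base. The PHx list had no region for 131011 bp on the Per3 side of this one. In that stretch the running peak numbers of PHx library 1 had no gap and those of library 2 lacked 1 number, which was read as 1 peak of library 2 alone somewhere in it. In the sham list, the region-free stretch upstream of Per3, where the PHx region lies, was longer, at 364625 bp. That stretch lacked 2 numbers of library 1 and 1 of library 2, and where in it those peaks lay was not determined. Absence from a merged list is therefore not absence from both libraries, and whether the library 2 peak lay at the Per3 promoter was not tested.

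Nr1d2 encodes REV-ERB beta, a receptor that represses Arntl. Its TSS is listed at chromosome 14, position 4230549, plus strand. The promoter region spanned 10816 bp after PHx and 8363 bp in sham, a ratio of 1.29. Upstream reach was 3598 bp after PHx and 2002 bp in sham, and downstream reach was 7217 bp after PHx and 6360 bp in sham. It was the narrowest of the clock promoter regions after PHx, with 70.7% of PHx regions at least as wide. In sham 48.2% of regions were at least as wide. The sham region was assigned to Nr1d2. The PHx region, which contained it whole, was assigned to the pseudogene Gm7084, whose listed start was covered in PHx and not in sham. Both lists had a further region upstream at Nkiras1, of 5811 bp at a distance of 29953 bp after PHx and of 4404 bp at 29995 bp in sham.

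Rora encodes ROR alpha, the receptor that activates Arntl. Its listed TSS, at chromosome 9, position 69195285, plus strand, belongs to a short transcript inside the gene, since the authors' annotation places regions further upstream in introns of a longer Rora transcript. The region at this TSS spanned 61203 bp after PHx and 59112 bp in sham, a ratio of 1.04 and the smallest of the clock genes. Both ends nearly coincided, with an upstream reach of 5620 bp after PHx and 6089 bp in sham and a downstream reach of 55582 bp after PHx and 53022 bp in sham. In sham it was among the widest regions of the list, with 0.215% at least as wide, and after PHx 2.55% were. In both lists it was assigned to Gm46153, a non-coding gene within it. It joined 1 peak of each library after PHx, and 3 peaks of library 1 and 2 of library 2 in sham.

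**Figure D2:**
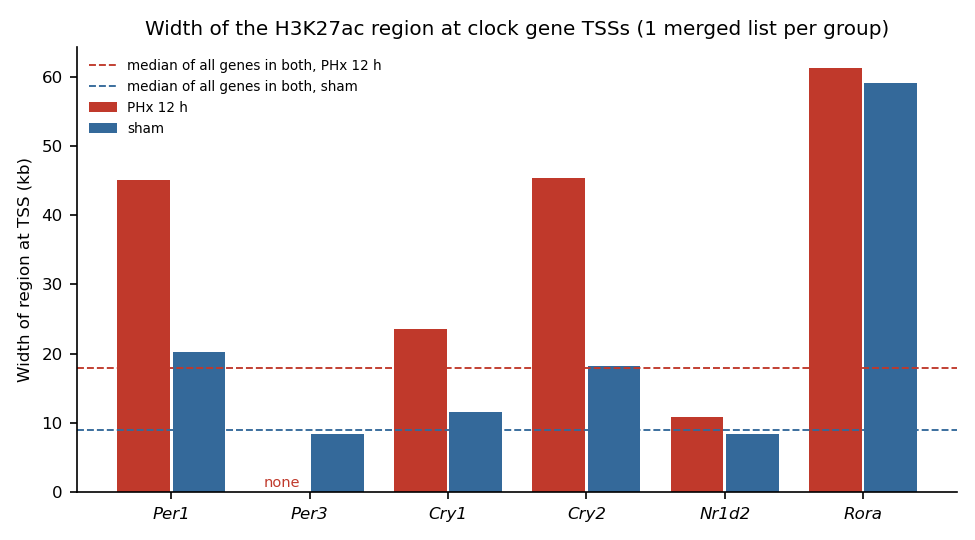
Width in kb of the region at the TSS of each clock gene, with PHx 12 h (left bar) and sham (right bar); each bar is 1 merged list and has no error. Dashed lines are the medians over all genes marked in both lists, 18002 bp after PHx and 9071 bp in sham. Rora is the widest in both lists and changes least, and Per3 has no PHx bar.

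Across these genes the widening was uneven. Over the 5 clock genes marked in both lists the median ratio of width was 2.02, with median widths of 45135 bp after PHx and 18171 bp in sham. Over all 6459 genes marked in both it was 1.74, with quartiles of 1.24 and 2.81. A ratio of at least 1.5 was found for 3 of the 5 (Per1, Cry1 and Cry2), against 60.2% of all genes. No clock gene had a ratio under 1 / 1.5, and 1.38% of all genes did. Those shares are close to the background. The median of 2.02 moved with the measure. It was 1.29 for the 3 genes whose regions match 1 to 1, beside 1.43 over all 4330 such genes. Counting acetylated length within 10 kb of the TSS it was 1.17 over the 6 clock genes, beside 1.28 over the 8585 genes with a sham region there. In sham the regions of Per1, Cry1, Cry2 and Rora were wider than the median of 9071 bp over all genes marked in both, and those of Nr1d2 and Per3 were narrower. In 4 of the 5 genes the sham region lay wholly inside the PHx region, as it did for 69.4% of all genes marked in both, and at Rora 58643 bp of 59112 bp did.

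**Figure D3:**
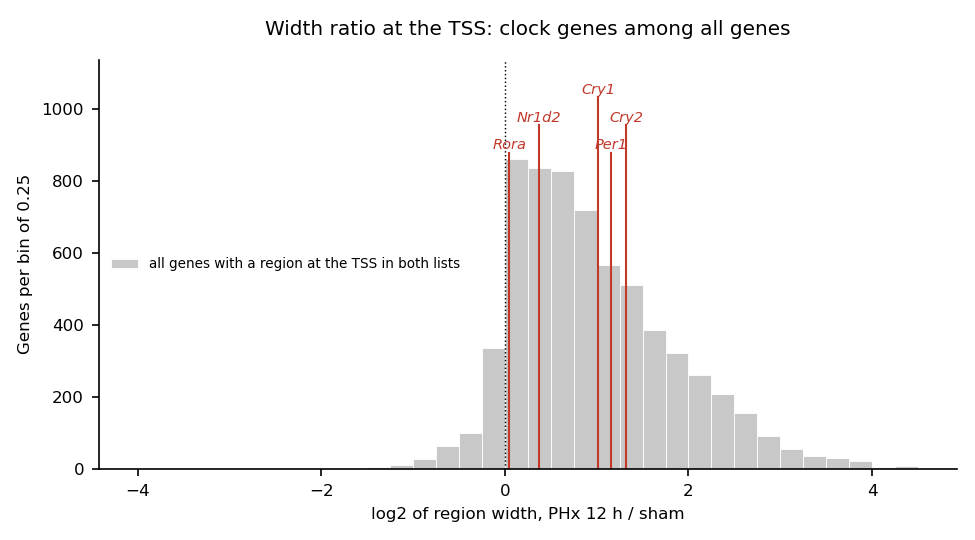
Histogram of the log2 ratio of region width, PHx 12 h over sham, for the 6459 genes marked in both lists, in bins of 0.25, with values beyond the axis placed in the end bins. Red lines are the 5 clock genes, from Rora with a ratio of 1.04 to Cry2 with 2.50, all inside the bulk of the genes.

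The gene named by a promoter region was not always the same in both lists. The region at the TSS named the clock gene itself in 2 cases after PHx (Cry1 and Cry2) and in 5 in sham (all but Rora). Among the 5 genes marked in both, 2 were named in sham and lost the name after PHx, Per1 and Nr1d2. Of all genes marked in both 14.5% did so, and of the protein-coding ones 14.2%, while 1.72% did the reverse. A wide region is assigned to 1 gene only, so Per1 and Nr1d2 had an acetylated TSS after PHx without appearing under their own names. Counting any region, 3 of the clock genes were named after PHx and 6 in sham. Genes entered this set only if a region of either list named them. The share of all gene names found in each list was not computed, so no conclusion is drawn from these 2 counts.

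Away from the promoters, the neighbourhoods held 6 further regions after PHx and 10 in sham within 100 kb of the 6 TSSs. Of these, 2 after PHx and 2 in sham shared no base with the other list. Across all regions 22.5% of the PHx list and 14.0% of the sham list had no overlap. With a reciprocal overlap of 50% required, 4 of the 6 after PHx and 8 of the 10 in sham had no counterpart, where 52.0% of all PHx regions and 57.9% of all sham regions had none. The 2 in PHx only were the region at Gm38529 beside Per3, and one of 18165 bp at Gm41098, 65956 bp upstream of Nr1d2. The 2 in sham only were a region of 5391 bp at Ctc1, 76401 bp upstream of Per1, and one of 7051 bp in an intron of Rora, 56327 bp upstream of the listed start. For each of the 4, at least 1 library of the other group lacked a peak number in that stretch. Such gaps also occurred around regions that overlap the other list. Around the Cry1 promoter region of PHx, sham library 1 lacked 3 numbers. The share over all stretches was not computed. Part of the difference in number was joining, since 3 of the sham regions (1 at Per1 and 2 at Cry2) overlapped a PHx promoter region. Upstream of Per1 the PHx region at Borcs6 spanned 21313 bp and overlapped 2 sham regions of 9780 and 6408 bp. By the authors' annotation, only 2 of the regions, both in sham, lay over 3 kb from the TSS they name, the one upstream of Cry2 and the Rora intron region.

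Within 100 kb to each side of the TSS, acetylated length was larger after PHx at 5 of the 6 genes. At Nr1d2 it was 34792 bp after PHx and 12767 bp in sham, a ratio of 2.73, mostly from the region at Gm41098. At Cry1 the ratio was 2.02, at Per3 1.40, at Per1 1.27 and at Cry2 1.03. Rora went the other way, with 61203 bp after PHx and 66163 bp in sham, a ratio of 0.925. The median over the 6 was 1.34. Over the 10435 genes with any sham region in the window it was 1.51, with quartiles of 1.21 and 2.0. The lower quartile of 1.21 means that most genes had a larger acetylated length after PHx, so 5 of the 6 follows the general case. The exact share over all genes was not computed. The clock genes had from 5.88% (Per3) to 43.3% (Per1) of the window covered after PHx, and from 4.20% (Per3) to 34.1% (Per1) in sham. Per3 and Cry1 stood in sparsely acetylated surroundings in both lists, and Per1, with further regions of both lists nearby, in dense ones.

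The long Rora gene held further regions upstream of the listed start. Over a span of 530 kb (chromosome 9, 68720489 to 69250867), 6 regions lay in the PHx list and 10 in sham. The authors' annotation put 3 PHx regions and 8 sham regions in Rora introns. Of these, 2 of the 3 after PHx and 3 of the 8 in sham named Rora, and the others named the non-coding gene Gm31262 or, for 1 in sham, LOC118567716. Each of the 3 intron regions after PHx overlapped a sham region, and 3 of the 8 in sham had no PHx overlap, with widths of 7686, 7470 and 7051 bp. The shares over all regions are those given above, 22.5% of the PHx list and 14.0% of the sham list. The covered share of the span was nonetheless 31.3% after PHx and 26.0% in sham. PHx regions were fewer and wider here, with 48955 bp after PHx in a region that overlapped sham regions of 13818 and 13698 bp. This PHx region was labelled a promoter, while the sham region of 13818 bp was labelled a Rora intron. A PHx region of 26734 bp, labelled an exon, overlapped another sham intron region, of 8278 bp. The counts of intron regions thus also reflect the label.

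**Figure D4:**
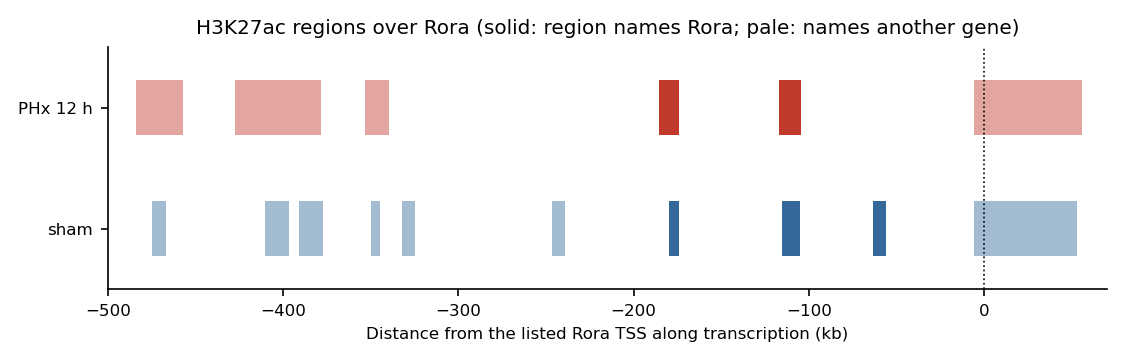
Regions over the Rora span, PHx 12 h above sham, by distance in kb from the listed Rora TSS along transcription. Solid bars name Rora and pale bars name another gene; 3 short sham bars have no PHx counterpart, and the wide region at the TSS has nearly the same ends in both lists.

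For the 4 clock genes that no region names, the RefSeq gene order gave the overlapping and nearest genes with a listed TSS. These are called neighbours here. Genes named by no region were passed over, so a neighbour need not be the adjacent gene. Nr1d1 encodes REV-ERB alpha and lies between Thra, a thyroid hormone receptor gene that it overlaps, and the non-coding gene Gm31862. A single region reached from before the listed end of Thra (98659832) to beyond the listed start of Gm31862 (98666308) on chromosome 11, in both lists. It spanned 38463 bp after PHx (98652715 to 98691177) and 37337 bp in sham (98652927 to 98690263), a ratio of 1.03. The stretch between them, where the gene order places Nr1d1, was thus inside a region in both groups, with nearly the same ends.

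Per2, the PERIOD gene with the strongest role in the core loop, overlaps the non-coding gene Gm35591 in the same gene order. The region at Gm35591 spanned 59182 bp after PHx and 36490 bp in sham, a ratio of 1.62, and the PHx region ran on without a break over the listed start of Hes6, the neighbour on the other side. In sham Hes6 lay in a separate region of 13571 bp, so the PHx region joined stretches that were both acetylated in sham. Traf3ip1, the neighbour beyond Gm35591, had regions of 9833 and 19405 bp after PHx and 1 of 3783 bp in sham. Bhlhe40 overlaps the non-coding gene 0610040F04Rik. The region there spanned 22724 bp after PHx and 18025 bp in sham, a ratio of 1.26. Beyond it, toward Gm35359, a further region spanned 40197 bp after PHx and 8399 bp in sham. Gm16433, on the other side, had a region of 10161 bp after PHx and none in sham. The neighbours of Dbp were Car11, a carbonic anhydrase-related gene, and Cyth2, an exchange factor for ARF proteins. Car11 had its listed end at position 45354040 of chromosome 7 and Cyth2 its listed start at 45456058. Whether other genes lie between them was not examined. The region at Car11 spanned 49093 bp after PHx and 21492 bp in sham, a ratio of 2.28, and ran beyond the listed end of Car11 by 23489 bp after PHx and 15243 bp in sham. Cyth2 went the other way, with no region after PHx and 1 of 11928 bp in sham. Whether the region at Car11 covered the Dbp TSS was not determined, since no listed position of Dbp on GRCm39 was used here. The same holds for the starts of Per2 and Bhlhe40, and none of the 4 is counted among the clock genes above.

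The other genes of the clock pathway were marked in both lists wherever they were assigned a region. Of a list of 26, 16 were, and all 16 were marked in both lists, where 59.1% of all genes were. Of the 7090 protein-coding names, 4682 were marked in both lists, a larger share. All 16 regions were wider after PHx, as were 91.5% of those of all genes marked in both. Of the 16, 11 were wider by at least 1.5 times, and the median ratio was 2.12, beside 60.2% and 1.74 over all genes marked in both. Ratios were largest at Hlf, a bZIP factor related to DBP, with 53659 bp after PHx and 11807 bp in sham (4.54), and at Ncoa3, a nuclear receptor coactivator, with 85923 bp after PHx and 18962 bp in sham (4.53). Ciart, a repressor of BMAL1 and CLOCK, followed with 31198 bp after PHx and 7813 bp in sham (3.99). These 3 were also those whose PHx region overlapped several sham regions. The share of all genes with such a PHx region was not computed, and the part of joining in these ratios was not tested. Ratios were smallest at Csnk1e, a casein kinase that phosphorylates PERIOD, with 19352 bp after PHx and 16818 bp in sham (1.15). Next were Nfil3, a repressor at D-boxes, with 18960 bp after PHx and 16149 bp in sham (1.17), and Arntl with 9935 bp after PHx and 8334 bp in sham (1.19). Clock, named for its role after its values were seen, had 8443 bp after PHx and 3402 bp in sham (2.48). The region at the TSS named the gene in 12 cases after PHx and 15 in sham, and Ciart, Nfil3 and Noct were those named in sham only. Of all genes marked in both, 14.5% were named in sham and not after PHx, so 3 of 16 is near the background. The remaining genes of the list, among them Npas2, Tef, Fbxl21, Btrc, Timeless, Nono, Usp2 and Nampt, were assigned no region and were not analysed here.

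**Figure D5:**
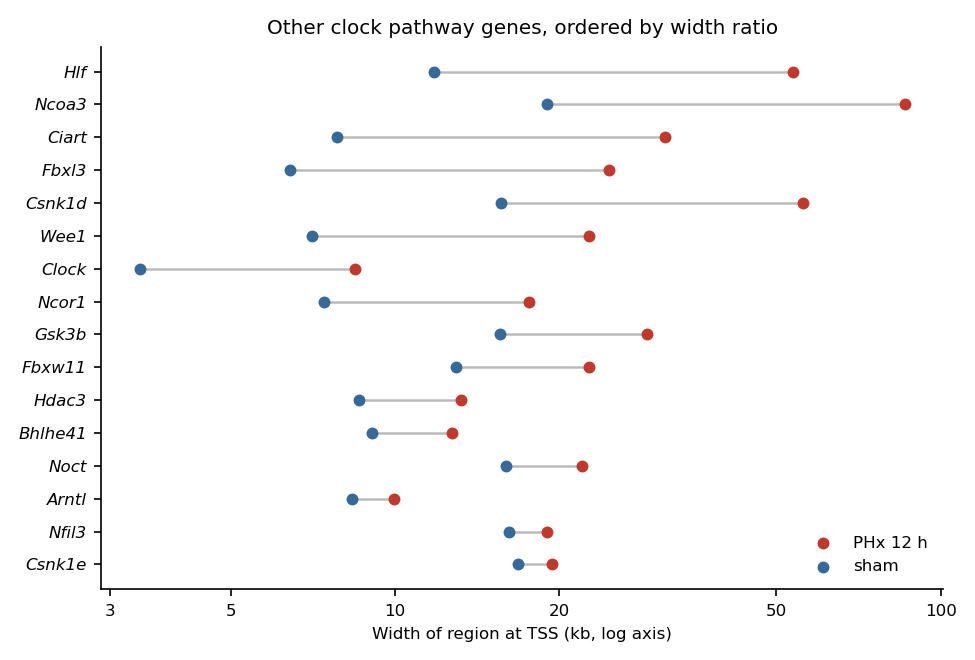
Width in kb (log axis) of the region at the TSS of the 16 other clock pathway genes, PHx 12 h in red and sham in blue, ordered by their ratio from Hlf at the top to Csnk1e at the bottom. The red point lies right of the blue one in every row.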

How the data were processed

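H3K27ac CUT&Tag was measured in 4 liver libraries, 2 from mice 12 h after 70% hepatectomy and 2 from sham-operated mice. The authors deposited 1 annotated region list per group on GRCm39. Per the file headers it gives each region's start, end and width in bp, the assigned gene with its transcript coordinates, and the peaks of both libraries joined into it. Tools named in the submitters' processing notes are Bowtie2, SEACR, DiffBind and ChIPseeker, without versions or roles, and thresholds are not given in the sources used. Every region joins peaks of both libraries, and a peak of 1 library alone is not listed, so widths depend on how peaks were split and joined.

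From these lists, promoter state (TSS ± 1 kb), width, reach, overlap (any shared base) and acetylated length within 100 kb were computed with Python 3.11.15 and pandas 2.3.3. Where several regions met a TSS window the widest was taken. Interval arithmetic was tested on simulated data. The RefSeq gene table (GRCm38.p6) gave names, biotypes and gene order; 7090 of the 10925 names were protein-coding and 264 found no match. The named genes are the members, the genes their promoter regions name or cover, and of the other clock list those in 1 group only, in neither, or with the 3 largest and 3 smallest ratios. The members and lists were chosen with earlier results of these data known. Peak numbers run in genomic order, so a number missing between neighbouring regions was read as a peak of that library alone. This reading, the neighbours of unnamed members and the shares over protein-coding genes and under the alternatives were added after seeing the data.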

Additional observations from a re-analysis of the deposited data

How the results depend on the processing

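With 1 merged list per group and no value per library, leaving out a replicate was not run. No paired analysis was possible because the lists give no value per library and no result comes from a test. The promoter counts (5 in both, 0 in PHx only, 1 in sham only) were identical when a region had to cover the TSS base, with a window of 3 kb, with any listed start, and with regions above the 25th percentile of width only. The values above already fixed this outcome, so it is no check of the counts. Each marked TSS lay inside its region, and only Cry2 had 2 listed starts. The nearest PHx region to Per3 began 3523 bp away. The narrowest PHx region, at Nr1d2, had 70.7% of PHx regions at least as wide. The median width ratio of 2.02 was 1.17 when only acetylated length within 10 kb of the TSS was counted over all 6 genes, and 1.29 for the 3 genes whose regions match 1 to 1 (Cry1, Nr1d2 and Rora). Both alternatives also change which genes enter, and the cause was not tested. It was 2.12 without Rora, an alternative chosen after seeing the data. Of the further regions within 100 kb, 0 after PHx and 2 in sham lay over 3 kb from the TSS they name. With a reciprocal overlap of 50%, 4 of the PHx and 8 of the sham regions were in 1 group only. Under that rule 52.0% of all PHx regions and 57.9% of all sham regions were. Where stretches with a missing peak number of the other group were left out, also chosen after seeing the data, 0 after PHx and 0 in sham were left. How many of all regions this would leave out was not computed, so no conclusion is drawn from it. The median ratio of acetylated length, 1.34 within 100 kb, was 1.30 within 50 kb and 1.35 within 25 kb. Depth is unknown, so a region missing from a list may have gone undetected.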
